A study of Mus musculus with 2 samples.

Results

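The genes described here are 10 respiratory genes carried by the mitochondrial genome itself: mt-Nd1, mt-Nd2, mt-Nd4, mt-Nd5, mt-Nd6, mt-Cytb, mt-Co1, mt-Co2, mt-Co3 and mt-Atp6. They were chosen by symbol from a table of 15239 mouse genes, and all 10 were listed, each above 0 in both libraries. No gene of that table was at 0 in either library, so a gene missing from it cannot be taken as absent from both. The study set mouse mammary basal cells with a hairpin RNA directed at Cdk14 (Cdk14-sh), a cyclin-dependent kinase that acts in Wnt signalling, against cells with a scrambled hairpin (Scramble control). Cdk14 itself was at 2.06 FPKM in Scramble control and 0.713 FPKM in Cdk14-sh, from 397 and 137 reads, a ratio of 0.345 (0.256 to 0.453). The labels describe both groups as normal mouse mammary gland. They give no strain, age, number of animals or time after the hairpin, and do not say whether cells were sorted or cultured. Each group was 1 library, so no difference below has a replicate check and no p-value was computed.

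The mammalian mitochondrial genome is a small circle that encodes core subunits of the respiratory chain, together with the rRNAs and tRNAs needed to translate them inside the organelle. The ND subunits form part of the membrane arm of complex I, which takes electrons from NADH. Cytochrome b lies in complex III, CO1 to CO3 form the catalytic core of complex IV (cytochrome c oxidase), and ATP6 is part of the proton channel of ATP synthase. Both strands are transcribed as long precursors that are cut mostly at the tRNAs between the coding genes. All coding genes lie on the heavy-strand transcript except mt-Nd6, which is read from the other strand. The remaining subunits of these complexes, and all of complex II, are encoded in the nucleus and imported. Pieces of mitochondrial DNA have also been copied into nuclear chromosomes, where they are annotated as pseudogenes.

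The values are FPKM, fragments scaled to gene length and library total, so levels of different genes can be compared per length. The step between low values was taken as 0.5 reads. On that assumption the totals behind the FPKM came to 10186924 reads (Scramble control) and 10177185 reads (Cdk14-sh). Reads recovered over all genes added up to more than these totals, for a reason not tested. Each range in parentheses after a ratio is a 95% interval that covers counting error only, with 2 reads taken as 1 fragment. Without molecular identifiers, reads cannot be taken as separate molecules, and such an interval compares these 2 libraries, not the 2 conditions. Of 12 basal markers fixed for the check of the label, all were in the table, from 8.42 FPKM (Trp63) to 1349 FPKM in Scramble control. Their summed level was 4697 FPKM there and 3405 FPKM in Cdk14-sh, but they went both ways. Intervals lay above equal levels for 4 and below for 8, against 35.7% and 33.3% of all measured genes with a length. Trp63 was 2.83-fold higher in Cdk14-sh (2.51 to 3.20), and Cnn1 had a ratio of 0.297 (0.280 to 0.315). Summed luminal markers (12 of 14 listed) were at 1615 FPKM in Scramble control and 1067 FPKM in Cdk14-sh, also with both directions. Of the 8 measured, with a mean of at least 1 FPKM, 3 had intervals above equal levels and 5 below. Kit, Prlr, Esr1 and Pgr, listed below that mean and named after their values were seen, all had intervals above equal levels. Kit was at 0.330 FPKM in Scramble control and 0.750 FPKM in Cdk14-sh, and Prlr at 0.154 FPKM and 1.77 FPKM. In the same order Esr1 was at 0.0862 FPKM and 1.55 FPKM, and Pgr at 0.0115 FPKM and 0.391 FPKM. Krt19 was 2.09-fold higher in Cdk14-sh (1.76 to 2.49), and Krt18 had a ratio of 0.277 (0.255 to 0.299). Fibroblast markers (5 of 7 listed) went both ways: their summed level was 298 FPKM and 110.4 FPKM, with Gsn and Dcn lower in Cdk14-sh and the less abundant Col1a1, Col1a2 and Col3a1 higher, and their median log2 ratio was 0.84. Of 4 adipocyte markers Fabp4 was listed, at 94.3 FPKM and 8.45 FPKM, and none of 4 red blood cell markers was listed. Another text of the labels names MDA-MB-231, a human line, and the extraction text names retinas. Of 5 retina markers 2 were listed, with a summed level of 3.47 FPKM in Scramble control and 1.78 FPKM in Cdk14-sh. Summed endothelial markers (7 of 8 listed) were at 145 FPKM in Scramble control and 16.7 FPKM in Cdk14-sh. Of the 7, 6 had intervals below equal levels, and Eng had a ratio of 0.966 (0.784 to 1.19). Summed immune markers (6 of 8 listed) were at 105 FPKM in Scramble control and 386 FPKM in Cdk14-sh, with Cd74 alone at 49.0 FPKM and 175 FPKM. H2-Aa, H2-Ab1 and Csf1r were also higher, and the interval of Cd68 (0.997 to 1.52) held equal levels. Ptprc, named after its value was seen, was lower, at 0.482 FPKM and 0.247 FPKM. The part of these differences in the levels below was not tested. In RNA from many cells, fewer cells of a type and less RNA per cell cannot be told apart.

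The 10 genes fell into a high and a low set by level, in both libraries alike. Above 200 FPKM in both libraries stood 7 members, and 3 stood below 100 FPKM in both, the highest of them at 12.7 FPKM. The highest were mt-Nd1 and mt-Cytb. In Scramble control mt-Nd1 was at 2874 FPKM and ranked 4 among all genes, directly below Gm29216. In Cdk14-sh the top member was mt-Cytb, at 3389.7 FPKM and rank 2, directly below Gm10925. Both of these neighbours are nuclear copies of mitochondrial genes and are described below. The low set was mt-Atp6, mt-Co3 and mt-Co2. The level of mt-Co2 was 0.574 FPKM in Scramble control, so the highest member exceeded the lowest 5007-fold in that library and 5899-fold in Cdk14-sh. Of the neighbours in the order of levels, mt-Nd2 and mt-Nd5 had overlapping counting intervals in Scramble control, mt-Nd2 and mt-Nd6 in Cdk14-sh, and mt-Co3 and mt-Co2 in both.

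**Figure D1:**
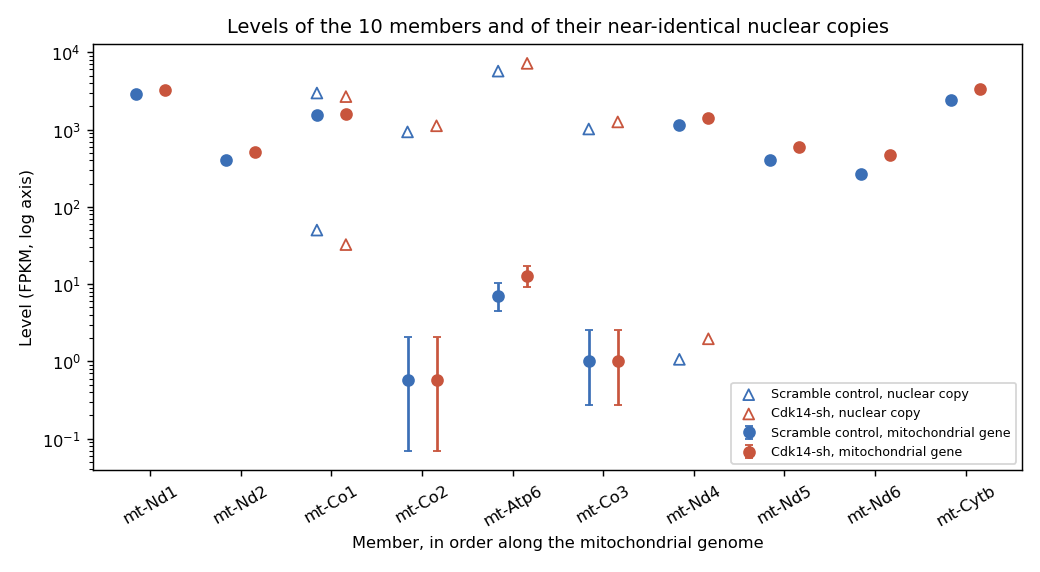
Levels in FPKM (log axis) of the 10 members in order along the mitochondrial genome, Scramble control in blue and Cdk14-sh in red, with filled circles for the mitochondrial gene, bars for 95% counting intervals and open triangles for annotated nuclear copies of at least 97% identity. The circles of mt-Co2, mt-Co3 and mt-Atp6 lie at 12.7 FPKM or lower, and the triangles above them lie between 933 and 7189.5 FPKM.

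Complex I has 5 members in the set, and each was higher in Cdk14-sh than in Scramble control beyond its counting error. Over all 12793 measured genes with a length, 35.7% had an interval above equal levels and 69% one that left them out in either direction. mt-Nd1 (ENSMUSG00000064341, 2751 to 3707 on the mitochondrial genome, GRCm38) was at 2874 FPKM in Scramble control and 3254 FPKM in Cdk14-sh, from 28021 and 31693 reads. That is 1.13-fold higher (1.11 to 1.16). The neighbouring mt-Nd2 (3914 to 4951) stood at 405 FPKM and 514 FPKM, 1.27-fold higher (1.20 to 1.35). Although they lie next to each other on the same precursor, mt-Nd2 was at 0.141 of the mt-Nd1 level in Scramble control and 0.158 in Cdk14-sh. mt-Nd4 (10167 to 11544) was at 1133 FPKM and 1396 FPKM, 1.23-fold higher (1.20 to 1.27). mt-Nd5 (11742 to 13565), the longest member at 1824 bases, was at 401 FPKM and 593 FPKM, 1.48-fold higher (1.42 to 1.54).

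mt-Nd6 (13552 to 14070, minus strand) is the only member on the opposite strand and had the highest ratio of the 7 abundant members. It was at 267 FPKM in Scramble control and 470.3 FPKM in Cdk14-sh, from 1409 and 2484 reads, 1.76-fold higher (1.61 to 1.94). Relative to mt-Nd5, with which it overlaps end to end by 14 bases, its level was 0.664 in Scramble control and 0.794 in Cdk14-sh. The labels name a stranded library kit; the sources used here do not state the strand setting of the count. Without strand, reads of mt-Nd6 and of the heavy-strand RNA that runs antisense to it cannot be told apart.

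Complex III has 1 mitochondrial subunit, cytochrome b. mt-Cytb (ENSMUSG00000064370, 14145 to 15288) was at 2434 FPKM in Scramble control and 3389.7 FPKM in Cdk14-sh, from 28364 and 39465 reads, 1.39-fold higher (1.36 to 1.42). It passed mt-Nd1 in the order: its level was 0.847 of the mt-Nd1 level in Scramble control and 1.04 in Cdk14-sh. Its share of the members' summed FPKM was 26.9% in Scramble control and 30.2% in Cdk14-sh, while that of mt-Nd1 was 31.7% and 29.0%.

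Complex IV gave 1 abundant member and 2 that were nearly absent from the table. mt-Co1 (ENSMUSG00000064351, 5328 to 6872), which holds the oxygen-binding centre, was at 1542 FPKM in Scramble control and 1584 FPKM in Cdk14-sh. Its ratio of 1.03 (1.00 to 1.05) was the lowest of the 7 abundant members, and its log2 ratio of 0.04 turned to -0.027 when the summed FPKM of the libraries were made equal. mt-Co2 (7013 to 7696), which receives electrons from cytochrome c, was at 0.574 FPKM and 0.575 FPKM, from 4 reads in each library. mt-Co3 (8607 to 9390) was at 1.00 FPKM in both, from 8 reads in each. With so few reads the intervals of the ratios ran from 0.0726 to 13.8 for mt-Co2 and from 0.186 to 5.37 for mt-Co3, so a difference within those bounds was not detectable at this depth. mt-Atp6 of ATP synthase (7927 to 8607) was at 6.99 FPKM in Scramble control and 12.7 FPKM in Cdk14-sh, from 48.5 and 88 reads, 1.82-fold higher (1.09 to 3.16).

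The 3 members with low values have a near-identical copy in the nuclear genome over their whole length, and those copies carried high values in the same table. The members were aligned to all annotated mouse transcripts (GENCODE M21, GRCm38). Copies of at least 97% identity were found for 5 members: 6 annotated pseudogenes, all of them in the table. They are Gm29216 and Gm13340 for mt-Co1, Gm28661 for mt-Co2, Gm10925 for mt-Atp6, Gm28437 for mt-Co3 and Gm28439 for mt-Nd4. Except for Gm13340, which lies on chromosome 2, they lie in a row on the minus strand of chromosome 1, from 24611535 (Gm28439) to 24616197 (Gm29216), in the order of the mitochondrial genes. Gm28661 matched 681 of the 684 bases of mt-Co2 without a mismatch, Gm10925 matched 678 of the 681 bases of mt-Atp6, and Gm28437 matched 783 of the 784 bases of mt-Co3.

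The ends of these 3 genes and of their copies are shown because they hold the only bases that the annotated copies lack, which are in capitals. Apart from them, the aligned letters are the same.
mt-Co2, chrM:7637-7696, plus strand: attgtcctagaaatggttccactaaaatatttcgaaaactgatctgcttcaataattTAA
Gm28661, chr1:24614885-24614941, minus strand: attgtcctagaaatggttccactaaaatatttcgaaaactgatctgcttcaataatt
mt-Atp6, chrM:8548-8607, plus strand: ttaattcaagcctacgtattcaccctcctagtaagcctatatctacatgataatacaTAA
Gm10925, chr1:24613974-24614030, minus strand: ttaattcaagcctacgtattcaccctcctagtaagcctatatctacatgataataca
mt-Co3, chrM:9331-9390, plus strand: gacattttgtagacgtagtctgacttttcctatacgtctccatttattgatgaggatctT
Gm28437, chr1:24613189-24613247, minus strand: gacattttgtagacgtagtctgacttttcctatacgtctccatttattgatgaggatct

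Of all 100-base windows, 99.5% in mt-Co2, 99.5% in mt-Atp6 and 99.9% in mt-Co3 occur letter for letter in an annotated nuclear transcript. The same share was 60.8% in mt-Nd4, 30.8% in mt-Co1, 3.19% in mt-Nd2 and 0% in mt-Nd1, mt-Nd5, mt-Nd6 and mt-Cytb. The 3 members with almost every window copied were the 3 with low values, and mt-Nd4 was among the abundant ones. Coding genes outside the set did not all follow this split. The share was 97.6% in mt-Nd3 and 98.5% in mt-Nd4l, which were at 115 FPKM and 710.0 FPKM in Scramble control. It was 0% in mt-Atp8, at 12.3 FPKM, but only annotated transcripts were searched. mt-Atp8 lies between mt-Co2 and mt-Atp6, whose copies lie in the same row on chromosome 1. An unannotated copy between those would not be seen. The 43 bases that mt-Atp8 shares with mt-Atp6 lie within the match of Gm10925, too few for a window.

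The copy of mt-Atp6 was the highest gene of the whole table in both libraries. Gm10925 was at 5708 FPKM in Scramble control and 7189.5 FPKM in Cdk14-sh, 1.26-fold higher (1.24 to 1.28). Gm28661, the copy of mt-Co2, was at 933 FPKM and 1119 FPKM, 1.20-fold higher (1.14 to 1.26). Gm28437, the copy of mt-Co3, was at 1017 FPKM and 1256 FPKM, 1.23-fold higher (1.18 to 1.29). Of the reads listed under either member of a pair, the copy held 99.9% in Scramble control for mt-Co2, mt-Atp6 and mt-Co3. In Cdk14-sh the copy held 99.9% for mt-Co2, 99.8% for mt-Atp6 and 99.9% for mt-Co3. The sources used here do not say how reads that match more than 1 place were treated, and its part in these levels was not tested. Over nearly all of their length the members of a pair cannot be told apart by sequence.

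An identical nuclear copy did not go with a low mitochondrial value in every case. Gm28439 matches the first 876 of the 1378 bases of mt-Nd4 without a mismatch, yet it was listed at 1.06 FPKM in Scramble control and 1.96 FPKM in Cdk14-sh, and held 0.0597% and 0.0893% of the pair's reads. The 2 pairs that follow, of coding genes outside the set, were named after their values were seen. Gm10222 matches 294 of the 297 bases of mt-Nd4l without a mismatch and held 1.33% of the pair's reads in Scramble control (0.773 to 2.26) and 0.367% in Cdk14-sh (0.126 to 0.899). For mt-Nd3 the reads were spread evenly: its copy Gm28438 held 51.4% in Scramble control (46.4 to 56.2) and 51.6% in Cdk14-sh (47.7 to 55.4). Read along the genome, the pairs from mt-Co2 to mt-Co3 had their values at the nuclear copy, mt-Nd3 at both, and mt-Nd4l and mt-Nd4 at the mitochondrial gene.

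Single-base differences numbered 2 among the ungapped chromosome 1 alignments, 1 in mt-Co1 and 1 in mt-Nd3. Positions are counted from 1 at the 5′ end of the mitochondrial gene, with the mitochondrial base first. They are A1066T between mt-Co1 and Gm29216 (position 6393 of the mitochondrial genome) and T3C between mt-Nd3 and Gm28438 (position 9461). The mitochondrial genes with their values at the nuclear copy lie between these positions, and mt-Nd4l and mt-Nd4 lie after the second. The alignment with Gm29216 begins at base 1063 of mt-Co1 and base 10 of the copy, so A1066T lies at its edge. Whether A1066T is a substitution or marks the border of the copied piece was not tested. The first 60 aligned bases of both pairs are shown with the differing base in capitals.
mt-Co1, chrM:6390-6449, plus strand: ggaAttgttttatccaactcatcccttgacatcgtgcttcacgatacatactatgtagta
Gm29216, chr1:24616129-24616188, minus strand: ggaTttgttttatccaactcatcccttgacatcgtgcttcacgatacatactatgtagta
mt-Nd3, chrM:9459-9518, plus strand: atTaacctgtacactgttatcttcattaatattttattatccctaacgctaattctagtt
Gm28438, chr1:24613060-24613119, minus strand: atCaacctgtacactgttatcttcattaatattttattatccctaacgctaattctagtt

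For mt-Co1 the table lists high values under both the mitochondrial gene and a partial nuclear copy. Gm29216 corresponds to its last 483 bases, with 99.8% identity, and was at 2971 FPKM in Scramble control and 2669.6 FPKM in Cdk14-sh, a ratio of 0.899 (0.869 to 0.929). Gm13340 matches the whole gene at 97.6% identity and was at 50.1 FPKM and 32.5 FPKM, a ratio of 0.649 (0.551 to 0.760). As listed, both copies were thus lower in Cdk14-sh, whereas the mitochondrial gene was not. Over their 483 aligned bases mt-Co1 and Gm29216 differ at 1 base, so nearly all of this stretch cannot be told apart by sequence. How the reads there were divided between the 2 was not tested.

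**Figure D2:**
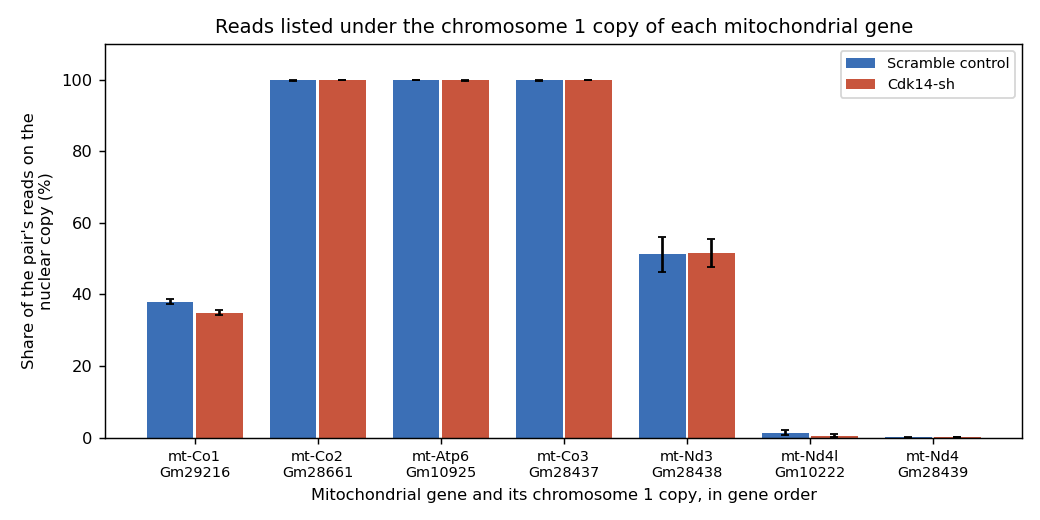
Share of the reads of each pair (percent, y axis) that the table lists under the chromosome 1 copy rather than the mitochondrial gene, for 7 pairs in gene order, with 95% exact binomial counting intervals. Bars are near 99.9% for mt-Co2, mt-Atp6 and mt-Co3, near 51% for mt-Nd3 and at most 1.33% for mt-Nd4l and mt-Nd4, in both libraries.

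Because of the copies, each member was also given as the sum of its own reads and those of its copies of at least 97% identity, over the member's length. This choice was made after seeing the data. mt-Atp6 then had the highest level, at 5689.9 FPKM in Scramble control and 7171 FPKM in Cdk14-sh, 1.26-fold higher (1.24 to 1.28). mt-Co2 was at 930 FPKM and 1115 FPKM, 1.20-fold higher (1.14 to 1.26), and mt-Co3 at 1017 FPKM and 1255 FPKM, 1.23-fold higher (1.18 to 1.29). mt-Nd4 remained 1.23-fold higher (1.20 to 1.27). Only mt-Co1 was lower among the 10, at 2538 FPKM and 2466 FPKM, a ratio of 0.972 (0.953 to 0.991). The highest summed level exceeded the lowest, that of mt-Nd6, 21.3-fold in Scramble control and 15.2-fold in Cdk14-sh.

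**Figure D3:**
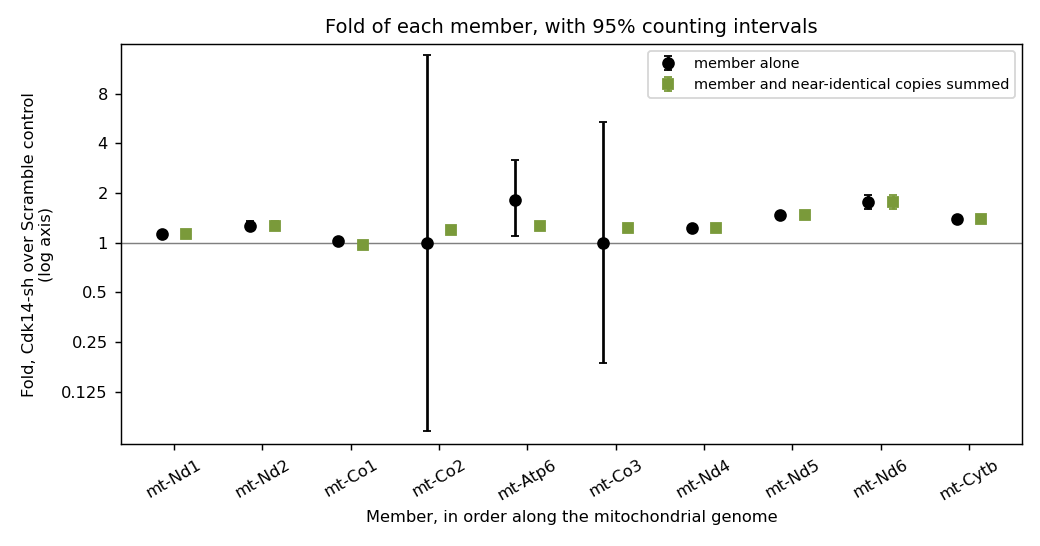
Fold of Cdk14-sh over Scramble control (log axis) for the 10 members, alone (black circles) and with the reads of near-identical copies summed (green squares), with 95% counting intervals. The wide bars of mt-Co2 and mt-Co3 rest on 4 and 8 reads in each library; with copies summed they stand at 1.20 and 1.23, and mt-Co1 stands at 0.972.

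As a list the members were moderately higher in Cdk14-sh. Of the 10, 9 reached a mean of at least 1 FPKM, and mt-Co2 did not. The log2 ratio was taken after adding 1 FPKM to both levels, Cdk14-sh over Scramble control, which understates the difference of low genes. It had a median of 0.35 over the 9, against 0.02 over all 12830 genes at that level. It was above 0 in 9 of 9, against 51.4% of all genes measured and 62% of the 681 whose mean was 100 FPKM or more. mt-Co3, with equal reads in both libraries, counts among the 9 with a value of 0.00069, and with summed FPKM made equal 7 of 9 were above 0. The counting interval lay above equal levels for 8 of the 10 and below for none. The same held for 35.7% of all measured genes with a length in the higher direction and 33.3% in the lower (69% in either), so an interval that leaves out equal levels was common in this pair of libraries. Intervals narrow as reads rise. The median level in Scramble control was 405 FPKM over the 9 and 7.62 FPKM over all measured genes. The share was not computed for genes as abundant as the members. None of the 9 was at least 2-fold different, against 27.8% of all genes measured and 11.5% of those with a mean of at least 100 FPKM. The members held 2.50% of summed FPKM in Scramble control and 2.95% in Cdk14-sh, and with their nuclear copies 5.44% and 6.18%.

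Along the heavy-strand transcript the ratios differed from gene to gene. With near-identical copies summed, they were 1.13 for mt-Nd1, 1.27 for mt-Nd2, 0.972 for mt-Co1, 1.20 for mt-Co2, 1.26 for mt-Atp6, 1.23 for mt-Co3, 1.23 for mt-Nd4, 1.48 for mt-Nd5 and 1.39 for mt-Cytb in gene order. Across these 9 genes Spearman's rho between ratio and start was 0.63, and it was 0.52 with mt-Atp8, mt-Nd3 and mt-Nd4l added (12 genes). Summing copies was a choice made after seeing the data, and with each gene's own reads rho was 0.43 over the 12 genes. These points share both libraries and the precursor RNA, so the coefficients are descriptions.

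Other products of the mitochondrial genome did not all share the members' direction. The rRNA genes lie at the start of the heavy-strand transcript. mt-Rnr2, the large ribosomal RNA, was at 2603 FPKM in Scramble control and 2247 FPKM in Cdk14-sh, a ratio of 0.863 (0.846 to 0.880). mt-Rnr1, the small one, was at 701 FPKM and 751 FPKM, a ratio of 1.07 (1.02 to 1.12). The level of mt-Cytb relative to mt-Rnr2 was therefore 0.935 in Scramble control and 1.51 in Cdk14-sh, and that of mt-Nd1 1.10 and 1.45. Among coding genes outside the set, mt-Nd3 was at 115 FPKM and 186 FPKM, 1.62-fold higher (1.35 to 1.93), and mt-Nd4l at 710.0 FPKM and 853 FPKM, 1.20-fold higher (1.11 to 1.30). mt-Atp8, which overlaps mt-Atp6 by 43 bases, was at 12.3 FPKM and 11.6 FPKM from 25.5 and 24 reads, a ratio of 0.942 (0.385 to 2.20), where mt-Atp6 was at 6.99 FPKM and 12.7 FPKM. Of 22 tRNA genes 19 were listed, 17 of them above 0 in log2 ratio, against 51.4% of all genes measured, and their median was 0.80. Most had few reads. Counting intervals lay above equal levels for 6 of the 19, near the share of 35.7% over all measured genes with a length. Of these 6 tRNA genes, mt-Tp, which follows mt-Cytb and mt-Tt on the other strand, was at 208 FPKM and 385 FPKM, 1.86-fold higher (1.37 to 2.50).

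The nuclear subunits of the same complexes were higher as lists too, with members on both sides. Of 78 measured nuclear subunits of complexes I to IV and ATP synthase, 64 lay above 0 in log2 ratio and the median was 0.43, while 56 had a counting interval above equal levels and 10 below. Over all measured genes 51.4% lay above 0, 35.7% had an interval above equal levels and 33.3% one below. The median was 0.42 over 36 subunits of complex I, 0.54 over 9 of complex III, 0.18 over 12 of complex IV and 0.45 over 17 of ATP synthase. Complex II, which has no mitochondrially encoded subunit, had a median of 0.45 over its 4 genes. In complex I, Ndufa10 was 2.42-fold higher (2.09 to 2.81) and Ndufa7 3.54-fold lower, at 22.6 FPKM in Cdk14-sh and 80.0 FPKM in Scramble control. In complex IV, Cox5a was 2.37-fold higher (1.99 to 2.82), and Ndufa4, which is now counted with this complex, was at 144 FPKM in Cdk14-sh and 210 FPKM in Scramble control. These medians kept their sign under each of the 4 scalings and both other pseudocounts tried.

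**Figure D4:**
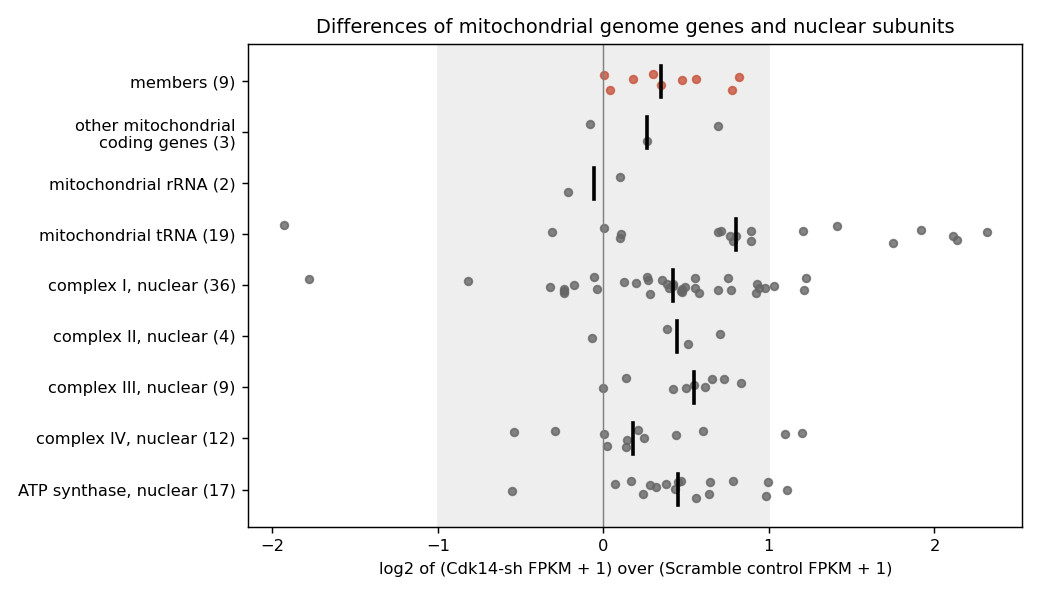
log2 ratio (x axis) of each measured gene in 9 groups, with 1 dot per gene, a black bar at the group's median, the number of genes in parentheses and grey shading for differences under 2-fold. The 9 measured members all lie within the shading with a median of 0.35, next to medians of 0.18 to 0.54 for the nuclear subunits, and the 2 rRNA genes lie on either side of 0.

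Genes that copy, transcribe and process the mitochondrial genome went in both directions. Of 15 measured transcription and replication genes, 7 had a log2 ratio above 0, the median was -0.02, 3 had counting intervals above equal levels and 4 below. Beside this list and those that follow, 51.4% of all measured genes lay above 0. Of all measured genes with a length, 35.7% had an interval above equal levels and 33.3% one below. Tfam, which packages mitochondrial DNA and starts its transcription, was at 7.04 FPKM in Cdk14-sh and 7.26 FPKM in Scramble control, a ratio of 0.970 (0.775 to 1.21); it and Tfb2m were named after their values were seen. The initiation factor Tfb2m was at 15.5 FPKM in Cdk14-sh and 28.8 FPKM in Scramble control, a ratio of 0.538 (0.454 to 0.634). Polrmt, the mitochondrial RNA polymerase, was at 1.95 FPKM and 0.314 FPKM in the same order, 6.21-fold higher (2.69 to 14.1). Of 19 measured genes of mitochondrial RNA processing, stability and decay, 14 lay above 0 and the median was 0.54. Counting intervals lay above equal levels for 12 of them and below for 5. The summed level of the 20 listed was 329 FPKM in Scramble control and 330 FPKM in Cdk14-sh. Supv3l1, the helicase of the mitochondrial degradosome, was at 5.05 FPKM in Cdk14-sh and 0.0992 FPKM in Scramble control (50.9-fold higher, 10.2 to 320), and the RNA-binding protein gene Grsf1 was 2.23-fold lower (1.91 to 2.62). Of 8 regulators of mitochondrial biogenesis, 3 had a log2 ratio above 0 and the median was -0.07, with 3 intervals above equal levels and 3 below. The nuclear receptor Esrra was 3.45-fold higher (2.17 to 5.80) and the coactivator Ppargc1a 1.64-fold lower (1.22 to 2.21).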

How the data were processed

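The authors deposited 1 table of FPKM values with a column for each of 2 libraries, and the column names abbreviate the sample titles. The submitters' processing notes list Bowtie 0.12.2, Subread 1.5.1 and featureCounts, plus 2 builds, GRCm38 and mm8, with no statement of what each served for. Exonic lengths from GENCODE M21 turned FPKM into reads: 79.2% of 15191 genes with a length lay within 0.01 reads of a multiple of 0.5 reads in both libraries. As an assumption, 2 reads were taken as 1 fragment. Ratio intervals come from the exact 95% Clopper-Pearson limits on Cdk14-sh's share of a gene's fragments, and level intervals are exact Poisson; both cover counting error only. Depth recovery and intervals were tested on data simulated with the same step and gene lengths, and mostly with 2 reads per fragment. That test could not check these assumptions. Members were aligned to annotated transcripts with blastn 2.17.0 (at least 100 bases, 85% identity; 97% for summed copies), so unannotated nuclear copies were not searched. Where rows shared a symbol, that with the higher mean was kept. The members, lists and alternatives were chosen with earlier results of these data known. The named genes are the members, other mitochondrial genes, near-identical copies, the genes next to a member in level, and up to 3 highest and 3 lowest of each list; exceptions are marked.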

Additional observations from a re-analysis of the deposited data

How the results depend on the processing

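With 1 library per group the depth of counting, not replication, is the only error shown, and mt-Co2 and mt-Co3 were too shallow for any ratio. The median log2 ratio of the members was 0.28 with summed FPKM made equal and 0.41 when a mean of 5 FPKM was required, and 0.29 to 0.39 under the other alternatives. The number of members past the fold limit was 2 at 1.5-fold and 0 under the other alternatives. The ratio of the members' shares of summed FPKM was 1.18 and became 1.14 with the nuclear copies added. For single members, 60 of 70 alternative log2 ratios moved by less than counting error and 7 by more. The 60 include every alternative of mt-Co2 and mt-Co3, whose intervals are so wide that hardly any shift could pass them. Both were below 0 under the 4 scalings, down to -0.023 for mt-Co2 and -0.032 for mt-Co3. mt-Co1 turned negative in 3: -0.027 with equal summed FPKM, -0.020 with equal summed FPKM outside the mitochondrial genome, and -0.041 with copies summed, a choice made after seeing the data. Under the 4 scalings 7 members, in place of 8, had intervals that left out equal levels; with each read taken as independent 8 did. With copies summed all 10 did, 9 above and 1 below. No paired analysis was possible because each group has 1 library.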
